A study of Pimephales promelas with 270 samples.

Results

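Out of 34856 transcripts measured in fathead minnow larvae, 100 were taken whose response to 3.3 mg/l propranolol differed most, in the upward direction, between larvae aged 6 days and larvae aged 4 days. They were chosen by measured values. The level of a transcript was log2(CPM + 1), where CPM is its count divided by all counts of the library, times 1e6, and the high-dose effect was the mean of the high-dose libraries minus the mean of the controls of the same exposure set. The effect at 4 days was subtracted from the effect at 6 days, once at 24 h and once at 48 h, and the smaller of the 2 differences was the score. The 100 highest scores were kept. They ran from 1.53 for FMt038208 and 1.52 for FMt040348 down to 0.43 for FMt042013 and for FMt002106, with a median of 0.55, and the next transcript, FMt041773, had 0.42. The median score over all transcripts was -0.11.

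The study exposed whole larvae aged 4, 5 or 6 days post fertilization to propranolol for 6, 24 or 48 h and counted mRNA reads. An age and a duration together make an exposure set, and each of the 9 sets held larvae in 3.3 mg/l propranolol (the high dose), larvae in 0.66 mg/l (the low dose) and controls. The 27 groups held 266 libraries, or 10 each, but the 6-day, 24 h set had 9 at each dose of propranolol, and 8 control libraries stood for the 6-day, 48 h set. The labels list 270 samples, and the other 4 were not analysed here. No strain or sex is given for any group, nor what the controls were kept in, nor whether the age is that before or after the exposure. The treatment text attached to the samples describes an ethinyl estradiol exposure, whereas the title, the design text and the dose labels give propranolol, and the propranolol labels were used. No label says that the samples of a group had separate vessels, so the p-values rest on the spread between the samples at hand, some of which may be technical.

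The fathead minnow is a freshwater fish on which many toxicity tests are run. Propranolol blocks beta-adrenergic receptors, through which adrenaline and noradrenaline act on heart rate and on the release of stored energy, and fish carry these receptors as well. At the ages studied the organs of a larva still mature, so that many transcripts change with age without any treatment. The transcripts carry bare identifiers, and 0 of the 34856 were found in the RefSeq table, so no gene name, role or sequence can be printed for any of them. In whole-larva samples, fewer cells of a type and less RNA per cell cannot be told apart. The identifiers FMt024303, FMt024305, FMt015290, FMt045504, FMt038166, FMt040344, FMt040345, FMt046718, FMt036191, FMt034563 and FMt002369 were picked after their values were seen, and all others named follow a stated rule.

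Libraries held between 5.37 and 31.0 M counts, and the median library held 14.3 M. The profile lay far from its group's median profile for 20 libraries (the distant libraries), at most 2 in any group, and 13 of them were in the 5-day sets and 8 in the 6 h sets. The library codes differ from set to set, so a difference between ages or durations cannot be told apart from a difference between codes.

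In the 4 sets that chose them, the members had mostly positive high-dose effects at 6 days and small or negative ones at 4 days. The median effect over the 100 members was 0.50 at 24 h and 0.65 at 48 h in 6-day larvae, and -0.12 at 24 h and -0.08 at 48 h in 4-day larvae, on the log2(CPM + 1) scale. As means of 24 and 48 h, the 6-day effect was above 0 for 96 members and the 4-day effect was below 0 for 62. For 79 members the 6-day effect was larger in size than the 4-day effect, so their high-dose response was stronger in the older larvae. For the other 21 it was not. These had the larger response at 4 days, as a lower level at the high dose, with median effects of -0.48 at 24 h and -0.59 at 48 h in 4-day larvae, and of 0.13 and 0.14 in 6-day larvae. A description of all 100 as a stronger response in older larvae therefore covers 79 of them, and the rest are described as members with a larger 4-day effect. All of these values come from the contrasts that chose the members and carry no test.

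FMt038208 had the highest score. At 6 days and 48 h it had 32.4, 63.5 and 81.1 CPM (lowest, median and highest library) at the high dose, against 6.34, 7.70 and 11.7 CPM in controls. In 4-day larvae at 48 h it had 14.1, 17.9 and 30.0 CPM at the high dose, against 6.42, 9.61 and 14.1 CPM in controls. The 6-day groups did not overlap, and the 4-day groups met at 14.1 CPM. At 24 h it had 27.9, 35.3 and 57.5 CPM at the high dose against 4.98, 9.25 and 13.6 CPM in controls at 6 days. At 4 days and 24 h the high-dose libraries had 5.62, 9.70 and 12.8 CPM and the controls 2.55, 7.19 and 9.40 CPM, and these groups overlapped. The control medians of this member lay between 7.19 and 9.61 CPM in all 4 sets, while the high-dose medians differed widely. These sets chose the member, so neither this nor the lack of overlap at 6 days is a separate result.

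FMt040348, with the next score, was far more uneven between libraries. In the 6-day, 48 h set it had 0.240, 16.1 and 545.1 CPM (lowest, median and highest) at the high dose, against 0.281, 3.30 and 16.6 CPM in controls. In the 6-day, 24 h set it had 0.646, 4.99 and 44.4 CPM at the high dose, against 0.0598, 1.20 and 9.07 CPM in controls. The groups overlapped in both sets and the high-dose libraries ranged widely. The high-dose median as well as the highest high-dose library lay above those of the controls in both sets.

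FMt035993, the member with the second highest mean level (426.8 CPM), belongs to those with the larger 4-day effect but is not typical of them. Its high-dose effect at 4 days and 48 h was -1.28 on the log2(CPM + 1) scale, the lowest of any member. The median over the members with the larger 4-day effect was -0.59 in that set. At 4 days and 48 h FMt035993 had 68.0, 347.5 and 1178.9 CPM at the high dose, against 211.2, 565.1 and 3667.8 CPM in controls. At 6 days and 48 h the high-dose libraries had 20.4, 90.7 and 428.0 CPM and the controls 16.1, 71.2 and 452.7 CPM. The high dose was lower than control at 4 days and close to it at 6 days, with wide overlap in both.

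**Figure D1:**
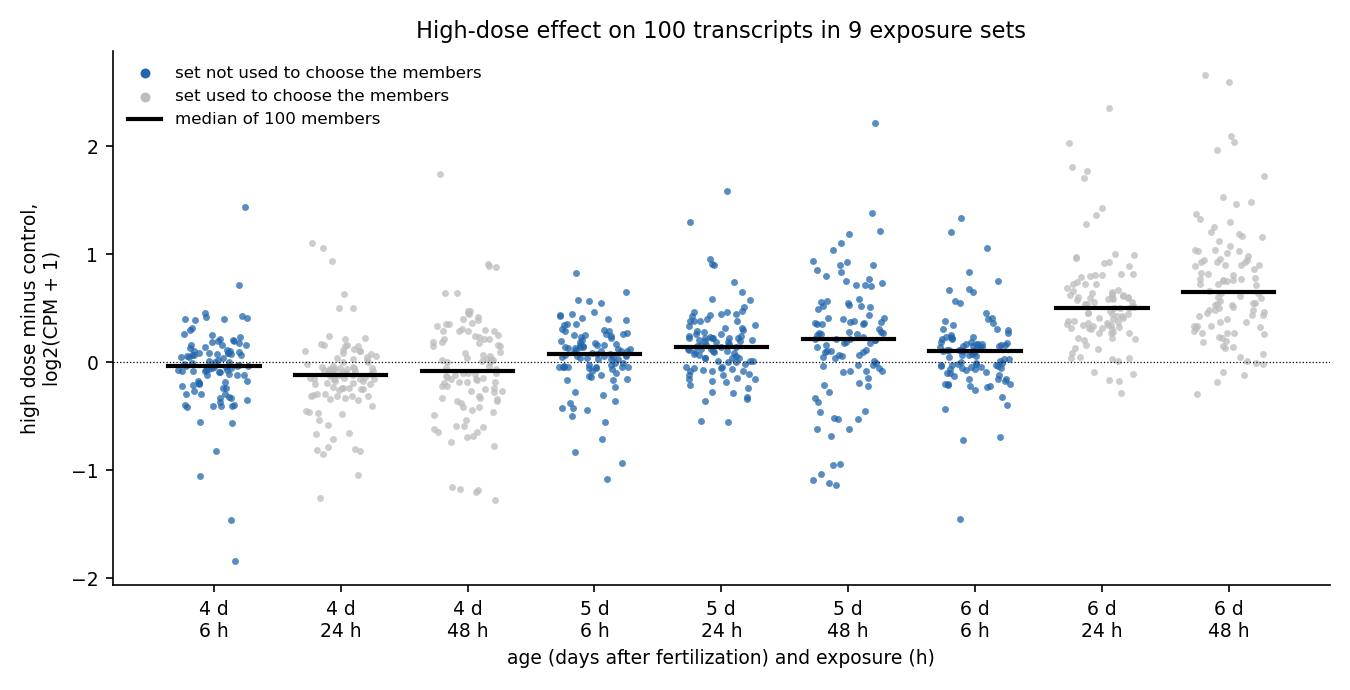
High-dose effect (high dose minus control, log2(CPM + 1), vertical axis) of each of the 100 members in the 9 exposure sets (horizontal axis, age in days and exposure in h). Each point is 1 member, grey points are the 4 sets that chose the members, blue points the 5 sets that did not, and black lines are medians. The medians of the 5-day sets were 0.08 at 6 h, 0.14 at 24 h and 0.22 at 48 h.

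The 5-day larvae were not used to choose the members, and at 24 and 48 h the high-dose effect was above 0 in them for most members. The median effect over the 100 members was 0.14 for 24 h and 0.22 for 48 h, against medians over all transcripts of -0.01 and -0.0003. At 24 h the effect was above 0 for 72 members and at 48 h for 70, against 46.9% and 49.9% of all transcripts. With the 20 distant libraries left out the 24 h median was 0.05, with 61 members above 0 against 50.9% of all transcripts, and the 48 h median was 0.22, with 70 above 0. The 79 members with the larger 6-day effect had 5-day medians of 0.19 at 24 h and 0.27 at 48 h, and the other 21 had 0.08 and -0.19. The low-dose effect at 24 h was similar, with a median of 0.13 and 76 members above 0, against 47.0% of all transcripts. Both effects subtract the same controls, so their likeness is not separate evidence of a response to each dose. The members' median level in that set was 2.56 in controls, 2.73 at the low dose and 2.74 at the high dose. With the distant libraries left out the low-dose median at 24 h was 0.06, with 59 members above 0 against 48.0% of all transcripts.

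At 5 days and 48 h the high dose changed 20 of the 98 members tested by edgeR's quasi-likelihood test at a false discovery rate of 0.05, with 19 that rose and 1 that fell. Over all 29886 transcripts tested in that set 1.22% were called, 0.947% as rises and 0.274% as falls. The median log2 fold change was 0.33 over the members tested and -0.005 over all transcripts tested. The sizes of the called changes ran from 0.52 to 3.44 on the log2 scale with a median of 0.95, and 10 of them were above 2-fold. Of the 20 called, 19 belonged to the 79 members with the larger 6-day effect and 1 to the other 21. The 2 members that were not tested had counts too low for the filter. With no filter 18 of 100 members were called, and 338 of all 34856 transcripts. With the distant libraries left out, 17 rises and 2 falls were called among 98 members, and 258 rises and 74 falls among all 30195 transcripts tested. The 19 risers ranked from 1 to 87 by score, and 12 of them were among the first 50.

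In the 24 h set of the same age, 3 of 96 members tested rose at the high dose and 0 fell, where 0.0795% of all 30183 transcripts tested were called. These 3, FMt045902, FMt016413 and FMt038208, also rose at 48 h. The median log2 fold change was 0.15 over the members tested and -0.01 over all transcripts tested. Leaving out the distant libraries lowered the members' median to 0.06, with 3 rises called, and 14 calls over all 30421 transcripts tested.

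FMt045902 was higher at the high dose in every library at both times. In the 24 h set it had 112.8, 200.5 and 587.8 CPM (lowest, median and highest) at the high dose, against 60.8, 73.8 and 102.6 CPM in controls. At 48 h it had 270.6, 373.8 and 767.2 CPM at the high dose, against 70.7, 91.4 and 112.4 CPM in controls. Every high-dose library was above every control library at both durations. It rose by a log2 fold change of 1.77 ± 0.21 at 24 h (SE, edgeR adjusted p = 8.23e-05) and of 2.32 ± 0.18 at 48 h (SE, adjusted p = 8.99e-10). With libraries of adjacent numbers summed, FMt045902 missed the threshold at 24 h (edgeR adjusted p = 0.0744) but not at 48 h (adjusted p = 0.0006). At the low dose it had 54.8, 82.7 and 100.6 CPM at 24 h and 67.9, 106.5 and 143.0 CPM at 48 h, overlapping the controls at both times.

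FMt016413 was a low-count transcript with a similar pattern. At 24 h it had 1.25, 2.60 and 3.85 CPM at the high dose, against 0.278, 0.878 and 1.38 CPM in controls, and 9 of 10 high-dose libraries were above all controls. At 48 h it had 1.22, 2.12 and 5.72 CPM at the high dose, against 0.162, 0.518 and 0.778 CPM in controls, with no overlap. Its log2 fold change was 1.60 ± 0.23 at 24 h (SE, edgeR adjusted p = 0.000288) and 2.35 ± 0.30 at 48 h (SE, adjusted p = 8.87e-06). Without the highest high-dose library at 48 h the change was 2.12 (adjusted p = 7.90e-06).

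FMt038208, the member with the highest score, had 6.75, 11.9 and 15.7 CPM at the high dose at 24 h, against 5.596, 7.37 and 9.58 CPM in controls. At 48 h it had 15.3, 18.4 and 36.4 CPM at the high dose, against 6.38, 8.33 and 10.4 CPM in controls. The groups overlapped at 24 h and did not at 48 h. The log2 fold changes were 0.68 ± 0.14 (SE, edgeR adjusted p = 0.0309) and 1.34 ± 0.16 (SE, adjusted p = 3.22e-06). The 48 h high-dose median of 18.4 CPM was close to that of 4-day larvae at 48 h, 17.9 CPM, and well under that of 6-day larvae at 48 h, 63.5 CPM.

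FMt024303 passed the test at 48 h but not at 24 h. In the 48 h set it had 22.0, 32.9 and 61.0 CPM at the high dose, against 7.77, 15.9 and 19.3 CPM in controls, with no overlap (log2 fold change 1.18 ± 0.14, SE, edgeR adjusted p = 2.10e-06). At 24 h it had 8.61, 18.5 and 21.8 CPM at the high dose and 8.35, 16.7 and 25.3 CPM in controls, where the groups covered the same range. FMt015290 had 4.12, 9.43 and 21.8 CPM at the high dose at 48 h, against 1.47, 2.84 and 7.46 CPM in controls. Of its 10 high-dose libraries, 8 were above all controls, and its log2 fold change was 1.65 ± 0.29 (SE, edgeR adjusted p = 0.00128). Leaving out its highest high-dose library gave 1.41 (adjusted p = 0.00240), and leaving out its highest control library gave 1.89 (adjusted p = 7.71e-05).

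**Figure D2:**
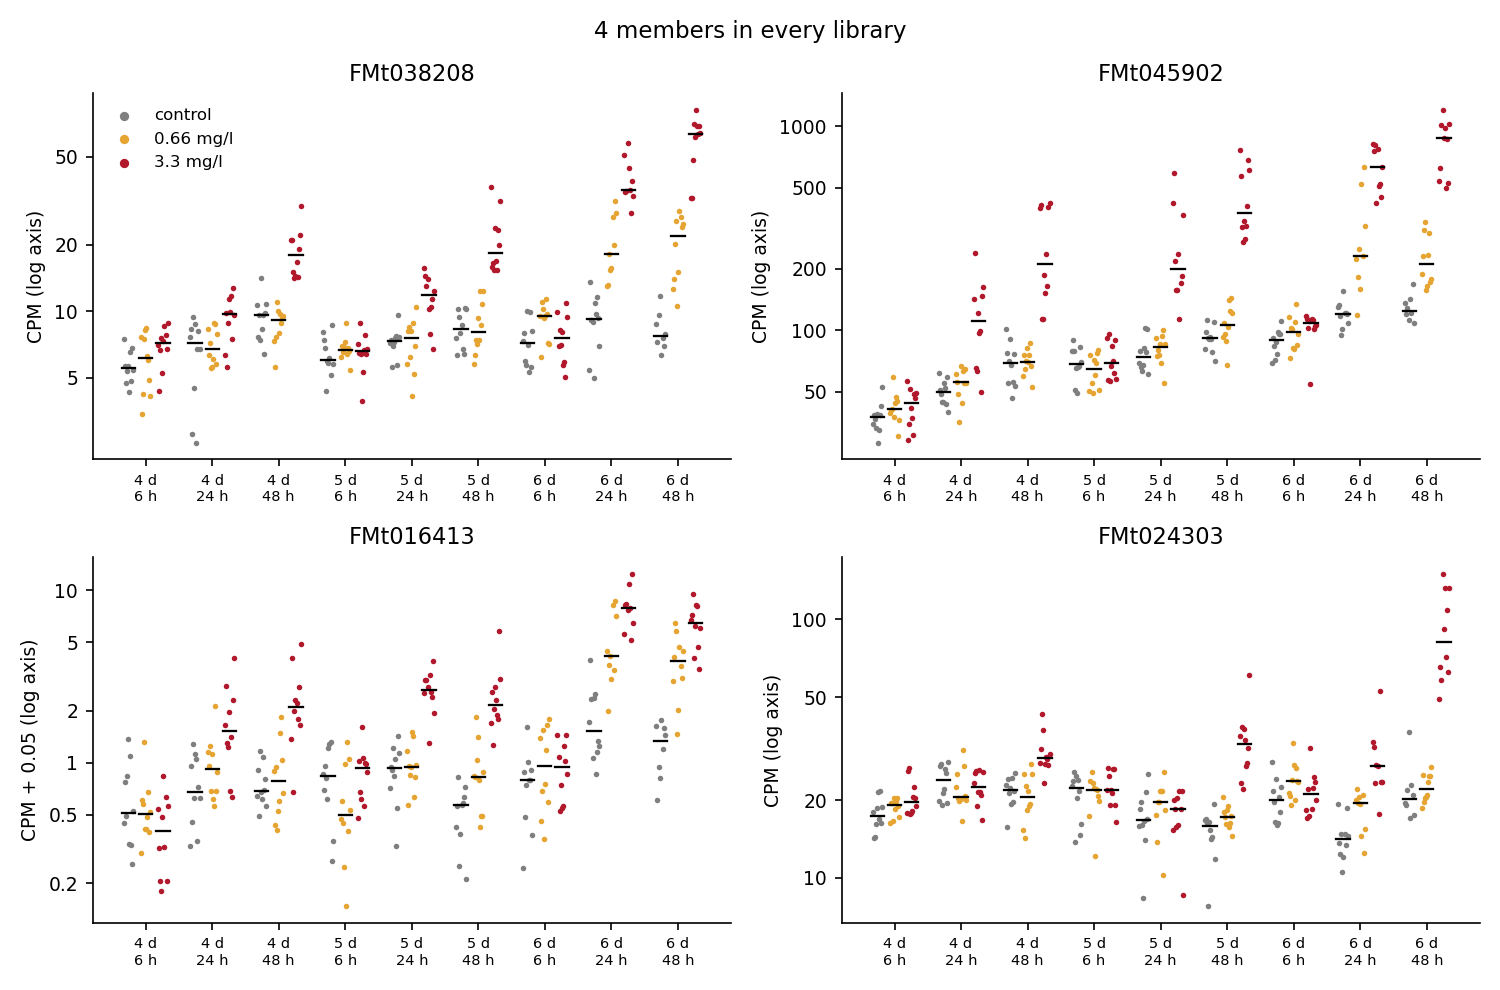
CPM of FMt038208, FMt045902, FMt016413 (with 0.05 added so that low values can be drawn) and FMt024303 on log axes, against age in days and exposure in h. Each point is 1 library, coloured by dose in the order control, 0.66 mg/l and 3.3 mg/l within each set, and black lines are group medians. In the 5-day, 48 h set all 10 high-dose libraries of each were above all 10 control libraries, and at 6 h the doses overlapped at every age.

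All 10 high-dose libraries were above all 10 controls for 1 member at 5 days and 24 h, FMt045902, where 0.0201% of the 34856 transcripts showed this. At 48 h the same held for 5 members, FMt038208, FMt024303, FMt045902, FMt016413 and FMt046718, where 0.118% of all transcripts showed it.

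The 1 member that fell at 5 days and 48 h was FMt025853, and the call rested on 1 control library. It had 0.151, 0.429 and 0.856 CPM (lowest, median and highest) at the high dose, against 0.605, 1.37 and 41.9 CPM in controls. The next highest control library had 1.90 CPM, and 7 of 10 high-dose libraries were below all controls. The log2 fold change was -3.44 ± 0.78 (SE, edgeR adjusted p = 0.0207), and without that control library it was -1.39 ± 0.39 (SE, adjusted p = 0.0813). With limma-voom it was -1.99 (adjusted p = 0.243).

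**Figure D3:**
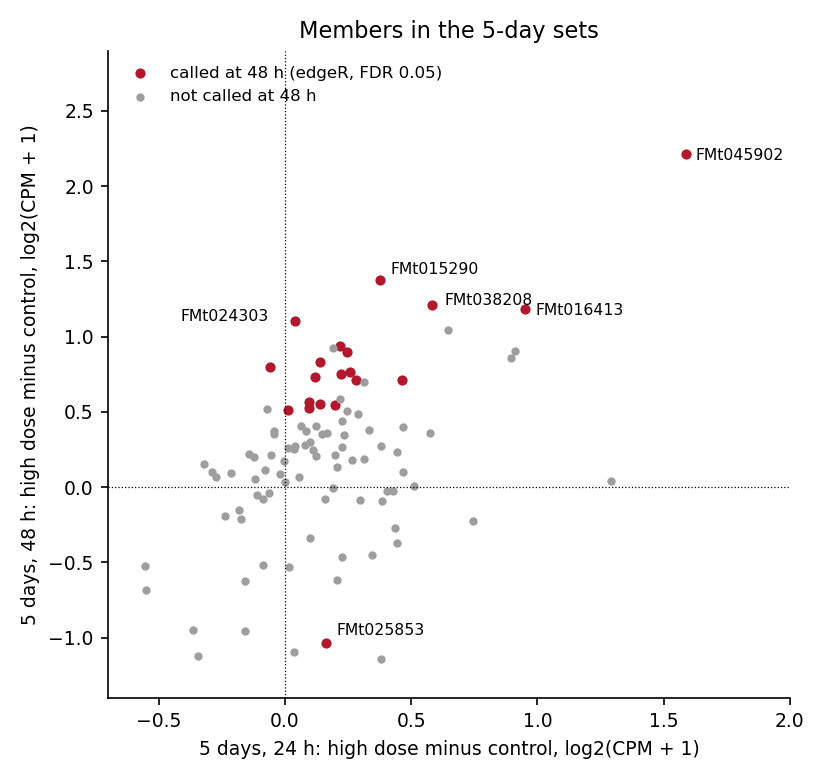
High-dose effect of each of the 100 members in 5-day larvae at 48 h (vertical axis) against that at 24 h (horizontal axis), both as high dose minus control on the log2(CPM + 1) scale. Each point is 1 member, and red points were called at 48 h by edgeR at a false discovery rate of 0.05. The effect was above 0 at both times for 55 members and below 0 at both for 13.

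Against the low dose, a contrast with no control library in its fold change (the controls still entered the filter, the scaling and the dispersion), the high dose changed 25 of 98 members at 5 days and 48 h, 24 of them as rises. In that comparison 5.3% of all transcripts were called, 2.89% as rises and 2.4% as falls. Of the 19 members that rose against control, 18 were among these 24, but both comparisons use the same high-dose libraries. The largest rises were those of FMt045902, by 2.13 ± 0.18 on the log2 scale (SE, edgeR adjusted p = 3.73e-09), and of FMt017690, by 1.54 ± 0.34 (SE, adjusted p = 0.00837). FMt017690 had 2.36, 4.77 and 14.4 CPM at the high dose, against 1.01, 1.76 and 3.74 CPM at the low dose. The fall was that of FMt041884, with 1.30, 2.48 and 4.39 CPM at the high dose, against 2.45, 4.37 and 6.87 CPM at the low dose. Its groups overlapped, with 5 of 10 high-dose libraries below all low-dose libraries, and the log2 fold change was -0.77 ± 0.22 (SE, edgeR adjusted p = 0.0342). At 24 h, 2 of 96 members rose, FMt045902 by 1.66 ± 0.21 and FMt016413 by 1.47 ± 0.22 (SE, edgeR adjusted p = 0.000264 and 0.00266), where 0.00663% of all transcripts were called. The median log2 fold change of the high against the low dose at 24 h was -0.06 over the 96 members tested, with 41 above 0.

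At the low dose 0 members were called in the 5-day larvae. At 24 h this was 0 of 96 with edgeR, where 0.0663% of all transcripts were called, and 10 members had an unadjusted p below 0.05, against 9.36% of all transcripts. At 48 h it was 0 of 98, where 0.0% of all transcripts were called, and 8 members had an unadjusted p below 0.05, against 8.18% of all transcripts. DESeq2 and limma-voom also called 0 members at both times. The median log2 fold change at the low dose was 0.18 over the members at 24 h and -0.04 at 48 h, against 0.00 and 0.01 over all transcripts. The members' median with the distant libraries left out was 0.10 at 24 h and -0.06 at 48 h.

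In 6-day larvae the low dose is described only, since its controls also entered the choice of the members. The median low-dose effect over the 100 members was 0.34 at 24 h and 0.17 at 48 h on the log2(CPM + 1) scale, and 91 and 82 members were above 0. Over all transcripts the medians were 0.03 and 0.004, and 57.0% and 51.6% were above 0. In 4-day larvae the members' median was -0.08 at 24 h and -0.10 at 48 h. In the 6-day, 24 h set FMt007107 had 37.0, 78.8 and 246.5 CPM in controls, 89.8, 297.1 and 652.7 CPM at the low dose, and 40.9, 105.1 and 252.8 CPM at the high dose, so its low-dose median was the highest of the 3 doses there.

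In 6-day larvae the low-dose median of FMt038208 lay between the control and high-dose medians. The control and high-dose libraries of these sets chose this member, so the difference between them is no separate result. At 24 h it had 4.98, 9.25 and 13.6 CPM in controls, 13.0, 18.1 and 31.6 CPM at the low dose, and 27.9, 35.3 and 57.5 CPM at the high dose. At 48 h it had 6.34, 7.70 and 11.7 CPM in controls, 10.6, 22.0 and 28.5 CPM at the low dose, and 32.4, 63.5 and 81.1 CPM at the high dose. In 5-day larvae at 48 h its low-dose libraries, with 5.81, 8.05 and 12.3 CPM, lay in the range of the controls.

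The level of the members in the 6-day, 24 h set was low in controls. Over the 100 members the median of the group mean levels was 2.28 in controls, 2.79 at the low dose and 2.93 at the high dose, on the log2(CPM + 1) scale, and the same medians over all transcripts were 2.54, 2.59 and 2.55. In the 6-day, 48 h set the members' medians were 2.42, 2.67 and 3.25 in the same order. In the 6-day controls at 6 h the members' median was 2.80. What part the low level of the 24 h controls has in the scores was not tested.

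After 6 h of exposure the members' median effects were small and 1 member was called. The median high-dose effect over the 100 members was -0.03 at 4 days, 0.08 at 5 days and 0.10 at 6 days on the log2(CPM + 1) scale, and it was -0.005, 0.05 and 0.03 with the distant libraries left out. In the same order 46, 63 and 61 members were above 0, against 53.2%, 41.3% and 49.8% of all transcripts. Without the distant libraries 49, 60 and 52 members were above 0, against 51.9%, 38.7% and 48.3%. As the mean of the 3 ages, 1 of 100 members differed from control at the high dose, where 0.0235% of all 34000 transcripts tested were called. At the low dose edgeR called 0 of 100, where 0.0% of all transcripts were called, and 2 members had an unadjusted p below 0.05, against 4.5% of all transcripts. DESeq2 and limma-voom also called 0 members at the low dose. The difference between the high-dose effects of 6-day and 4-day larvae at 6 h, tested directly, was called for 0 of 100 members with edgeR, where 0.00294% of all transcripts were called. By unadjusted p below 0.05 there were 14 members, against 8.16% of all transcripts, and DESeq2 and limma-voom called 0. The median difference over the members was 0.13 on the log2 scale, against -0.004 over all transcripts. With the distant libraries left out it was 0.04, with 11 members at an unadjusted p below 0.05.

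The member called at 6 h was FMt042951, which rose by 1.82 ± 0.41 on the log2 scale (SE, edgeR adjusted p = 0.0494), and this rested on 1 library. At 6 days it had 0, 0.325 and 49.5 CPM (lowest, median and highest) at the high dose, against 0, 0.278 and 0.755 CPM in controls. At 5 days it had 0.719, 3.06 and 24.3 CPM at the high dose, against 0.0680, 1.61 and 16.5 CPM in controls. At 4 days it had 0.848, 17.0 and 70.9 CPM at the high dose, against 1.28, 8.65 and 60.7 CPM in controls. The medians were higher at the high dose at each age, and the groups overlapped throughout. Without the 6-day library at 49.5 CPM the change was 0.48 ± 0.45 (SE, adjusted p = 0.905).

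In 5-day larvae the high-dose effect was larger at 48 h than at 6 h for 8 of 100 members and smaller for 0, where 0.179% of all transcripts were called. The largest differences in log2 fold change were 2.24 ± 0.45 for FMt016413 (SE, edgeR adjusted p = 0.00217) and 2.22 ± 0.26 for FMt045902 (SE, adjusted p = 2.66e-11). All 8 were among the 19 members that rose against control at 48 h, whose high-dose and control libraries this comparison shares. With the distant libraries left out 9 were larger and 1 smaller, where 82 of all 34037 transcripts were called. With DESeq2 8 were larger and 1 smaller, where 98 of all 26737 were called.

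**Figure D4:**
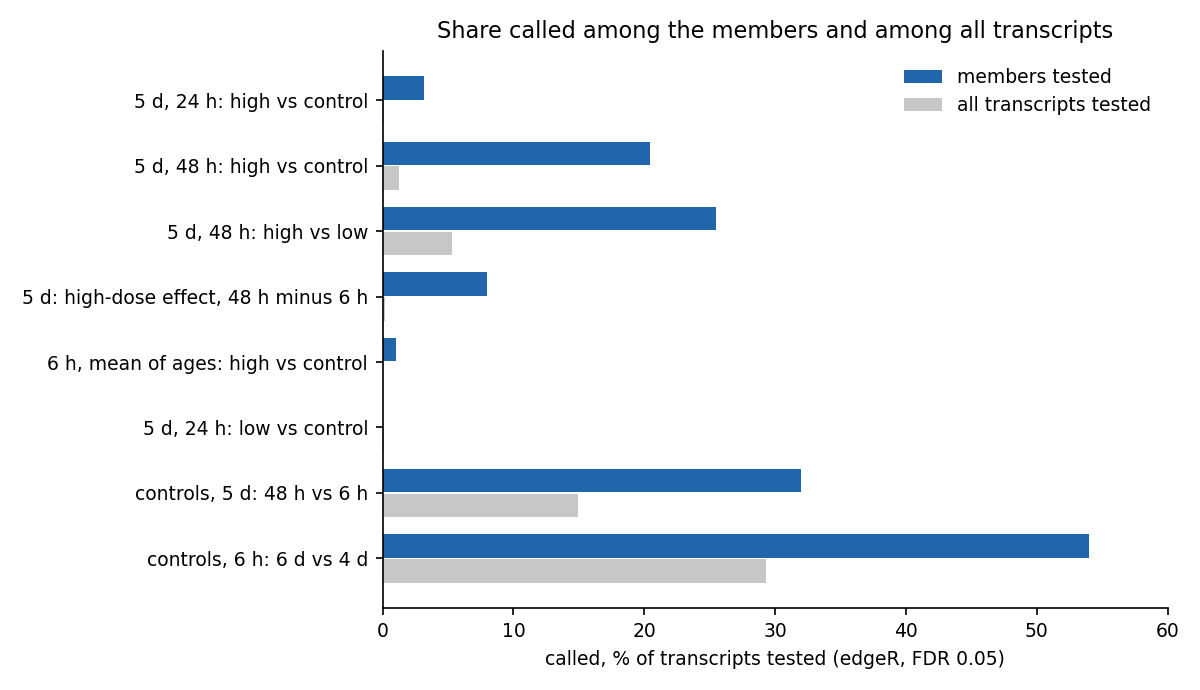
Percentage of transcripts called by edgeR at a false discovery rate of 0.05 (horizontal axis) in 8 comparisons (rows), for the members tested (blue) and for all transcripts tested (grey). At 5 days and 48 h, high dose against control, 20 of 98 members were called, against 1.22% of all transcripts. Among controls alone 54 of 100 members differed between 6 and 4 days at 6 h, against 29.3% of all transcripts.

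Many members also differed between larvae of 6 and 4 days that received no propranolol. The library codes of these sets differ too, so age and code cannot be told apart here. Between the controls of 6 and 4 days at 6 h, none of which entered the choice of the members, 54 of 100 members differed. Of these 24 were higher at 6 days and 30 were lower. Over all 34000 transcripts 29.3% were called, 15.8% as higher and 13.4% as lower. The median size of the members' called differences was 1.24 on the log2 scale, and 29 were above 2-fold. Of the 19 members that rose at the high dose at 5 days and 48 h, 7 were higher and 2 lower in the older controls.

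The largest increase from 4-day to 6-day controls was that of FMt026576, with 13.5, 31.7 and 591.3 CPM at 6 days, against 0, 0.771 and 3.55 CPM at 4 days. The groups did not overlap, and the log2 fold change was 6.78 ± 0.93 (SE, edgeR adjusted p = 1.59e-10). Without the 6-day library at 591.3 CPM it was 5.94 (adjusted p = 9.09e-09). FMt026575, whose identifier is adjacent, followed with 6.39 ± 0.86 (SE, adjusted p = 6.50e-11). The largest decrease was that of FMt025852, with 0, 0.852 and 2.80 CPM in 6-day controls, against 2.48, 48.0 and 77.1 CPM in 4-day controls (log2 fold change -5.61 ± 0.72, SE, adjusted p = 5.37e-12). FMt042951 followed with -5.51 ± 0.83 (SE, adjusted p = 5.41e-09). The members thus included transcripts near 0 CPM in the younger controls and transcripts near 0 CPM in the older ones.

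Between 5-day controls kept for 48 h and for 6 h, 32 of 100 members differed, 9 higher and 23 lower at 48 h. Over all transcripts 14.9% were called, 8.01% as higher and 6.88% as lower. FMt013517, the member with the highest mean level (2068.9 CPM over all libraries), had 403.5, 989.6 and 2198.2 CPM in the 48 h controls, against 1059.6, 2569.4 and 6746.6 CPM in the 6 h controls (log2 fold change -1.55 ± 0.29, SE, edgeR adjusted p = 5.78e-06). FMt013518, the next identifier, had 34.4, 77.9 and 170.6 CPM at 48 h, against 199.6, 292.0 and 397.4 CPM at 6 h, with no overlap (-1.74 ± 0.25, SE, adjusted p = 4.90e-09). The largest decrease was that of FMt025853, at -2.08 ± 0.71 (SE, adjusted p = 0.0288), which was -4.17 without the 48 h control library at 41.9 CPM. The largest increases were those of FMt026576, at 3.97 ± 0.82 (SE, adjusted p = 5.52e-05), and FMt042356, at 2.01 ± 0.63 (SE, adjusted p = 0.0153). FMt026576 had 1.54, 4.57 and 176.9 CPM in the 48 h controls, against 0.441, 1.97 and 5.51 CPM in the 6 h controls, and without its highest 48 h library the log2 fold change was 3.23.

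The members spread more between libraries of the same group than transcripts in general. Over the 15 groups of the 5-day and 6 h sets, from which the choice took no library, the median within-group SD of the level was 0.46 for the members and 0.27 for all transcripts, on the log2(CPM + 1) scale. The SD of 61 members was above 0.41, the value that 10% of all transcripts exceeded. Among the 19 that rose at the high dose at 5 days and 48 h the median SD was 0.30, and among those not called it was 0.53. The libraries of that set entered both this SD and the test, which calls transcripts of small spread more readily. The difference is therefore no separate trait of the 19. Mean levels over all libraries ran from 0.630 to 2068.9 CPM, with a median of 6.36 CPM against 5.30 CPM over all transcripts. The part of this spread in the scores was not tested.

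FMt040348 shows the spread in the unused sets. In the 5-day, 48 h set it had 0, 0.667 and 5.16 CPM at the high dose, against 0.103, 2.27 and 18.1 CPM in controls. The groups overlapped, and the log2 fold change of -1.63 ± 0.83 missed the threshold (SE, edgeR adjusted p = 0.397). This was the opposite sign from its 6-day effects of 1.43 at 24 h and 2.09 at 48 h on the log2(CPM + 1) scale.

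FMt045504 and FMt038166, ranked 3 and 9 by score, switched between a low and a high level from library to library. In 64 libraries FMt045504 was below 10% of its median of 92.3 CPM, and in all 64 of them FMt038166 was below 10% of its own median of 48.6 CPM. In the 200 libraries where both were above these limits, the ratio of FMt045504 to FMt038166 stayed between 1.58 and 2.55, with a median of 1.95. Low libraries were found in 26 of the 27 groups, at every age and dose. In the 6-day, 24 h set FMt045504 was low in 2 of 9 high-dose libraries and 3 of 10 controls, and in the 4-day, 24 h set in 3 of 10 high-dose libraries and 2 of 10 controls. In 5-day larvae it was low in 4 high-dose libraries and 5 controls at 24 h, and in 3 and 5 at 48 h. Its high-dose effects there were 0.91 and 0.90 on the log2(CPM + 1) scale. Neither was called, with edgeR log2 fold changes of 0.71 ± 0.98 at 24 h and 0.52 ± 0.94 at 48 h (SE, adjusted p = 0.94 and 0.84). The part of these low libraries in the scores and in the 5-day effects was not tested. Of the 88 members with a median of at least 1 CPM, 5 were below 10% of their median in 27 or more libraries, against 0.883% of all such transcripts.

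**Figure D5:**
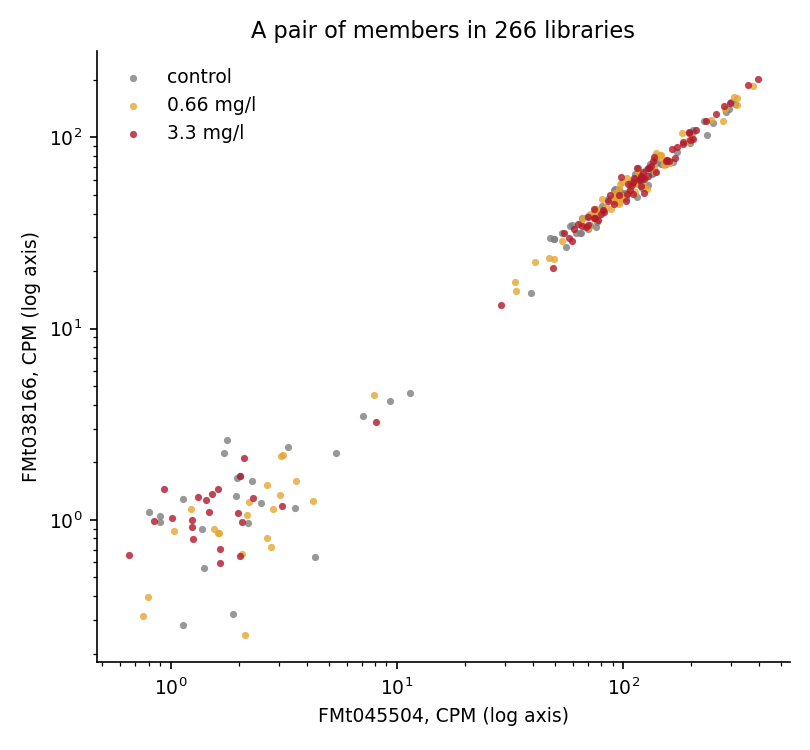
CPM of FMt038166 (vertical, log axis) against FMt045504 (horizontal, log axis) in the 266 libraries, 1 point each, coloured by dose in the order control, 0.66 mg/l and 3.3 mg/l. The libraries form a low and a high group in both transcripts at once, and all 3 doses are found in both groups.

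Some members had neighbouring identifiers. For 18 of the 100, another member's identifier lay within 5. FMt040344 and FMt040345 were at or above 10 CPM in 24 and 32 libraries, and all 24 of the first were among the 32 of the second. FMt025850 and FMt025853 had high-dose effects of -1.14 and -1.04 at 5 days and 48 h, and of -0.12 and -0.30 at 6 days and 48 h, on the log2(CPM + 1) scale. FMt024303 had 1.11 and FMt013518 0.10 at 5 days and 48 h, and their neighbours FMt024305 and FMt013517 had 0.80 and 0.09. The mean of FMt024305 was 1.74 CPM, so the pseudocount of 1 shrinks its effect on this scale. Its edgeR log2 fold change there was 1.38 ± 0.25 (SE), against 1.18 ± 0.14 (SE) for FMt024303. Transcripts of 1 gene or near-identical copies can share reads, so such neighbours need not be separate measurements.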

How the data were processed

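The authors deposited whole-number read counts per transcript, which were used unchanged. Lexogen's SENSE mRNA-Seq V2 kit was used on frozen, lysed larvae, per the labels' protocols. Mapping was to known mRNA transcripts of the species, per the series' design text. The submitters' processing notes name edgeR 3.26.8, limma 3.40.6 and bcl2fastq 2.19.1 without saying what each did. The aligner and the treatment of shared reads are not stated there. The lowest total of a transcript was 166 counts.

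CPM was a count divided by the library's total, times 1e6. Members were ranked by the score given above, with a pseudocount of 1. Tests used edgeR 4.0.16 in R 4.3.3 (TMM scaling, filterByExpr, robust quasi-likelihood F-tests), fitted on the whole table with Benjamini-Hochberg adjustment over all transcripts tested and a false discovery rate of 0.05. Dose comparisons at 5 days, and at 6 days and 24 h, fitted the 3 doses of the set, and comparisons across sets fitted all 27 groups. The standard error was the log2 fold change divided by the square root of F. Any pair of libraries of a group differed by more than counting noise (the lowest chi-square was 4.02 times its degrees of freedom), so all were kept. Procedures were tested on simulated counts. Python 3.11.15 with NumPy 2.4.6, pandas 2.3.3 and matplotlib 3.10.9 made tables and plots.

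Transcripts were named if they had the 2 highest scores or ranks 99 to 101, the 2 highest scores among members with the larger 6-day effect or among the rest, the 2 largest called rises or falls of a comparison, or the 2 highest mean levels, and FMt045902 was added by name. The members, this rule and the comparisons were chosen with earlier results of these data known. Alternatives were no filter, RLE size factors, DESeq2 1.42.0, limma-voom (limma 3.58.1), sums of libraries with adjacent numbers, leaving out libraries far from their groups (above the median root mean square distance plus 3 scaled MADs, which is 0.407), only the 6 h groups, and a replicate block. Leaving out single libraries was added after the data were seen.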

Additional observations from a re-analysis of the deposited data

Results flagged for a closer look

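Of 66 groups of 8 to 10 libraries whose values are given for a named member, 16 had 1 library standing apart from the rest by Dixon's criterion. It flags about 1 in 20 groups by chance where values are normally distributed. Here it was applied to CPM without a log, and whether these values are normally distributed was not tested, so that rate is no measure of an excess. For FMt042951 the highest library stood apart in 5 groups at 6 h. At 4 days the highest library had 70.9 CPM at the high dose (next 28.0 CPM) and 60.7 CPM in controls (next 21.1 CPM). In 5-day larvae the highest had 24.3 CPM at the high dose (next 9.54 CPM) and 16.5 CPM in controls (next 4.92 CPM), and in 6-day larvae the highest had 49.5 CPM at the high dose (next 0.943 CPM).

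At 5 days and 48 h the highest high-dose library stood apart for FMt016413 with 5.72 CPM (next 2.995 CPM), for FMt024303 with 61.0 CPM (next 38.4 CPM) and for FMt015290 with 21.8 CPM (next 11.2 CPM). Among the controls of that set the highest library stood apart for FMt015290 with 7.46 CPM (next 4.36 CPM) and for FMt025853 with 41.9 CPM (next 1.90 CPM). In the 5-day, 24 h set FMt024303 had 1 low high-dose library with 8.61 CPM (next 15.3 CPM), and FMt038208 had 1 high control with 9.58 CPM (next 7.71 CPM).

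Elsewhere, FMt038208 had 1 high-dose library with 30.0 CPM at 4 days and 48 h (next 22.1 CPM). FMt035993 had 1 control with 3667.8 CPM at 4 days and 48 h (next 1601.3 CPM), FMt013517 had 1 control with 6746.6 CPM at 5 days and 6 h (next 3837.9 CPM), and FMt026576 had 1 control with 591.3 CPM at 6 days and 6 h (next 227.2 CPM).

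The high-dose effect of 5-day larvae differed between 48 h and 6 h, tested as an interaction with edgeR, for 8 members. The difference in log2 fold change was 2.24 for FMt016413, 2.22 for FMt045902, 1.28 for FMt038208, 1.12 for FMt036191, 1.04 for FMt024303, 0.88 for FMt046718, 0.83 for FMt034563 and 0.79 for FMt002369.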

How the results depend on the processing

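The counts of members called stayed within 1.5 times those reported, except as follows. With libraries of adjacent numbers summed, the high dose changed 1 member at 5 days and 24 h against control and 1 against the low dose. It was FMt016413 in both (edgeR adjusted p = 0.0137 and 0.0419), and FMt045902 lost both calls (adjusted p = 0.0744 and 0.223). For the low dose at 6 days and 24 h, 13 of 96 members passed, where 5.94% of all transcripts were called. With summed libraries 2 of 100 members passed, and 459 of all 32686 transcripts. With DESeq2 21 of 86 members passed, and 2378 of all 24025 transcripts. The controls of that set had entered the choice of the members, so these counts test nothing about them. The 1 member called at the high dose at 6 h became 0 with no filter, RLE size factors, only the 6 h groups, limma-voom, summed libraries and DESeq2. At 5 days and 48 h the count against control was 16 to 27 and that against the low dose 20 to 29. Of 157 refits of 23 changes of single transcripts 138 kept direction and call, 19 lost the call and 0 reversed. Refits that gave no adjusted p, such as DESeq2 for FMt025853 at 5 days and 48 h, were not counted. The causes were not tested.

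Over all transcripts, summed libraries gave 4 calls in place of 24 (high dose, 5 days, 24 h), 222 in place of 365 (48 h), 1023 in place of 1583 (against the low dose, 48 h), 6 in place of 20 (low dose, 5 days, 24 h), 1 in place of 0 (48 h), 459 in place of 1763 (low dose, 6 days, 24 h) and 2 in place of 1 (6-day minus 4-day effect at 6 h). DESeq2 gave 79, 612, 2716, 51 and 2 for the first 5 of these comparisons with 15 in place of 2 against the low dose at 24 h, 98 in place of 61 for 48 h minus 6 h, 1 in place of 0 for the low dose at 6 h and 0 in place of 1 for the 6-day minus 4-day effect. Without libraries far from their groups 14 were called in place of 24 and 11 in place of 2 at 5 days and 24 h. The 8 calls for the high dose at 6 h ranged from 0 to 14.

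Library numbers recur across sets, but nothing in the labels pairs them. Same-numbered libraries deviated together by a mean r of 0.004 (from -0.48 to 0.56, over 1048 pairs). Out of the 10 library numbers of its dose, 35 of 266 libraries were closest to their own. Without any pairing, each of the 10 numbers would be closest equally often. With a replicate block, members called were 8, 54, 33 and 0 for the high-dose effect at 48 h minus 6 h, the controls by age, the controls by duration and the 6-day minus 4-day effect. Over all 34000 transcripts tested, 57, 9906, 4963 and 0 were called in the same order. Doses of a set share no library numbers, so within a set no paired analysis was possible. Transcripts with few counts, such as FMt016413, and members whose libraries differ widely limit what 10 libraries per group can show.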
